A study of Mus musculus with 4 samples.

Results

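The MHC class II presentation genes are the genes with which a cell displays peptides from its endosomes to CD4 T cells. Their mRNA levels were read in the liver of mice fed a diet with or without added selenium (Se). The group was fixed by name as Cd74, H2-Aa, H2-Ab1, H2-Eb1, H2-DMa, H2-DMb1 and Ciita, and a gene was a member when its symbol was in the deposited table. Of these 7 genes, 6 were among the 7000 genes listed in that table. H2-Eb1 was not listed. Liver RNA had been sequenced from 2 mice of the 0 Se group (mice 1 and 2) and 2 mice of the 0.1 Se group (mice 4 and 5). All 4 were male FVB/N animals with no genetic alteration, kept for 6 weeks from weaning on a torula yeast diet low in Se to which either 0 or 0.1 ppm Se was added as sodium selenite. The study asked how the Se in the diet alters gene expression. The values used are the mean level of each gene over the 4 libraries, in CPM (read counts scaled to the same library total). The table gives no level per mouse, so depth per library and the spread between mice were not analysed here. Its fold changes and p-values are the authors' own comparison of the diets and were left unused, so the difference between the diets was not analysed here either. No value below carries a replicate error, and no order of genes below was tested.

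Class II molecules are heterodimers of an alpha and a beta chain that assemble in the endoplasmic reticulum around the invariant chain. The invariant chain blocks the peptide groove and guides the complex to endosomes, where proteases degrade it and the chaperone H2-DM exchanges its last fragment for a peptide. The genes are active without a stimulus in dendritic cells and B cells and can be induced by interferon-γ in macrophages and other cells, in each case through Ciita, a co-activator that binds no DNA itself and acts on factors already bound to the class II promoters. In liver the dendritic cells, B cells, Kupffer cells and sinusoidal endothelial cells are the usual sources, and hepatocytes have little class II.

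Which genes the table lists limits what an absence means. Its rows follow the p-values of the authors' comparison and end before the larger ones, after a filter on genes with few reads. A gene that is not listed therefore failed that filter, lay beyond the end of the table, or stands under another form of its symbol. Albumin (Alb) and transthyretin (Ttr), major secreted products of hepatocytes, were not listed either. Medians, quartiles, percentiles and places below therefore refer to the listed genes, not to all genes of the liver. The tissue label was checked on 8 hepatocyte markers, of which 3 were listed, each with a level above that of every class II gene. Apoa1, the main protein of high-density lipoprotein, was at 7504 CPM, Cyp2e1, an ethanol-oxidising cytochrome, at 7257 CPM and Tat, tyrosine aminotransferase, at 1415 CPM.

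Divided by the length of the listed mRNA, the class II genes fell into a high and a low set. Cd74, H2-Aa and H2-Ab1 lay above the upper quartile of all listed genes, which was 18.0 CPM per kilobase (kb). H2-DMa, H2-DMb1 and Ciita lay below the median of 6.19 CPM per kb, though H2-DMb1 did not when reads shared with a copy were allowed for. The highest and the lowest of the 6 genes differed 109-fold on this scale, and the median of the 6 was 22.9 CPM per kb. Together the 6 mRNAs took 366 CPM, or 0.0366% of all aligned reads. Cd74 took 49.2% of that sum, H2-Aa 32.1% and H2-Ab1 13.1%.

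**Figure D1:**
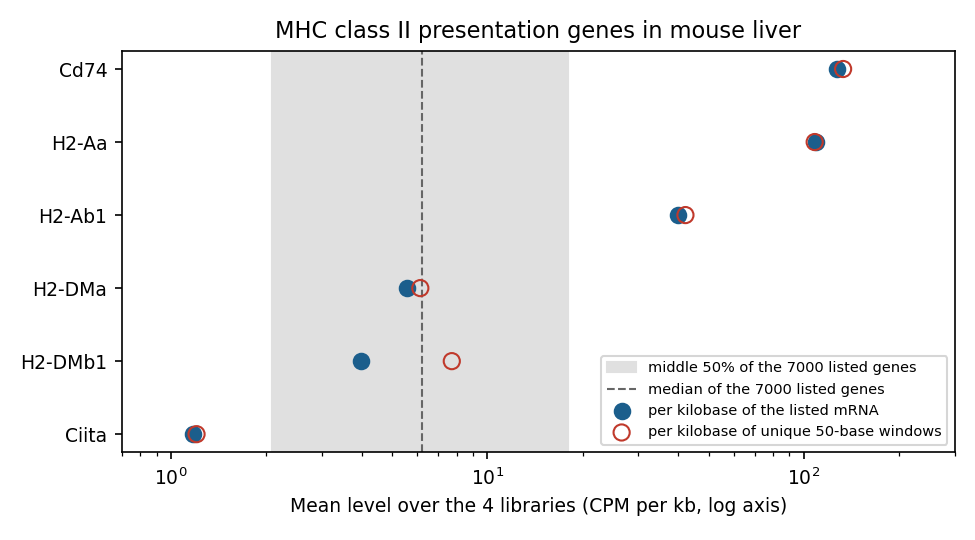
Mean level of the 6 listed MHC class II genes over the 4 liver libraries, in CPM per kb on a log axis. Filled points divide by the listed mRNA length and open circles by the number of 50-base windows found in no other gene, the grey band spans the middle 50% of the 7000 listed genes (2.09 to 18.0 CPM per kb) and the dashed line is their median. Cd74, H2-Aa and H2-Ab1 sit to the right of the band, and the filled and open symbols lie clearly apart only for H2-DMb1 (4.0 and 7.72 CPM per kb).

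Cd74, the invariant chain and also a receptor for the cytokine Mif, was the most abundant of the group. Its mean was 180.0 CPM, 7.49 on the log2 scale, for an mRNA of 1415 bases, which is 127 CPM per kb. It held place 387 from the top among the 7000 listed genes per length, at percentile 94.5, and lay 20.5-fold above their median. Cd74 has 9 exons on chromosome 18 of NCBIM37 (mm9), from 60963502 to 60972300 on the plus strand, outside the H2 complex that holds the chain genes.

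H2-Aa encodes the alpha chain and H2-Ab1 the beta chain of H2-A, the classical class II molecule that mice of all common strains make. H2-Aa had a mean of 117 CPM over an mRNA of 1069 bases, or 110 CPM per kb, at percentile 93.9 and place 426 from the top. H2-Ab1 had 47.9 CPM over 1193 bases, or 40.1 CPM per kb, at percentile 86.7 and place 929. The counted reads of the alpha chain mRNA were thus 2.73-fold above those of the beta chain per length, while the proteins pair 1 to 1. FVB/N mice carry another H2 haplotype than the reference, and reads with too many mismatches were not counted. Whether an unequal loss of reads between H2-Aa and H2-Ab1 altered this ratio was not tested. Cd74 was 1.16-fold above H2-Aa and 3.17-fold above H2-Ab1 per length. H2-Aa has 5 exons on the minus strand of chromosome 17, from 34419689 to 34424772, and H2-Ab1 has 6 exons on the plus strand, from 34400154 to 34406363.

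H2-Eb1, the beta chain of the other classical molecule H2-E, is annotated next to H2-Aa, from 34442828 to 34453144 on the plus strand, with 6 exons. No level can be given for it. None of the 6 other class II symbols looked up was listed, which were H2-Ea and H2-Ea-ps (both names for the H2-E alpha gene), H2-Eb2, H2-DMb2, H2-Oa and H2-Ob, H2-Oa and H2-Ob being the chains of the H2-DM inhibitor H2-O.

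H2-DMa and H2-DMb1 encode the chains of H2-DM, the peptide exchange chaperone. H2-DMa had a mean of 9.24 CPM over 1658 bases, or 5.57 CPM per kb, at percentile 47.1. H2-DMb1 had 5.13 CPM over 1284 bases, or 4.0 CPM per kb, at percentile 38.5. The mean of the H2-A chain mRNAs was 15.7-fold above the mean of the H2-DM chain mRNAs per length. Within H2-DM the alpha chain was 1.39-fold above the beta chain, and this order did not hold when reads shared with a copy were allowed for. H2-DMb2 is a neighbour of H2-DMb1 that shares much of its sequence, and reads that align to more than 1 mRNA were discarded. Of the 1348 windows of 50 bases in the annotated H2-DMb1 mRNA, 683 (50.7%) also occur in H2-DMb2 with up to 2 mismatches. Divided by the 665 windows that are left, H2-DMb1 came to 7.72 CPM per kb against 6.14 CPM per kb for H2-DMa, an alpha to beta ratio of 0.795. The level of H2-DMb1 is therefore uncertain by about the size of that gap, and so is its percentile. On unique windows H2-DMb1 lay above the listed-length median of 6.19 CPM per kb, and H2-DMa stayed just below it.

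The same check on the other genes found few shared windows. H2-Aa and H2-DMa shared none with the longest mRNA of any of the 22611 genes searched, Ciita shared 0.477% and Cd74 0.661%. H2-Ab1 shared 2.50% of its windows, all with H2-Eb1, and H2-Eb1 itself shared 6.38%, most of them with H2-Eb2. A separate limit concerns alleles. The classical chain genes are among the most variable genes of the mouse, chiefly over the exons of the peptide groove, FVB/N mice carry another H2 haplotype than the C57BL/6 reference, and reads with more than 2 mismatches were not counted. How far this lowered the values of H2-Aa and H2-Ab1, shifted the ratios that use them, or kept H2-Eb1 from the table, was not tested.

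The chain genes and the H2-DM genes lie in 181 kb of chromosome 17, from 34272127 to 34453144. H2-DMa runs from 34272127 to 34276046 and H2-DMb1 from 34290017 to 34297168, both on the plus strand. Between the H2-DM genes and H2-Ab1 lie 4 genes of the class I pathway, all listed. The immunoproteasome subunits Psmb8 and Psmb9 were at 33.8 and 20.9 CPM per kb, and the peptide transporter subunits Tap1 and Tap2 at 9.01 and 10.2 CPM per kb. Each of the 4 thus lay above both H2-DM genes and below both H2-A genes per length, also when H2-DMb1 was divided by its unique windows. H2-DMb2 and H2-Ob, the remaining named protein-coding genes of the interval, were not listed.

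**Figure D2:**
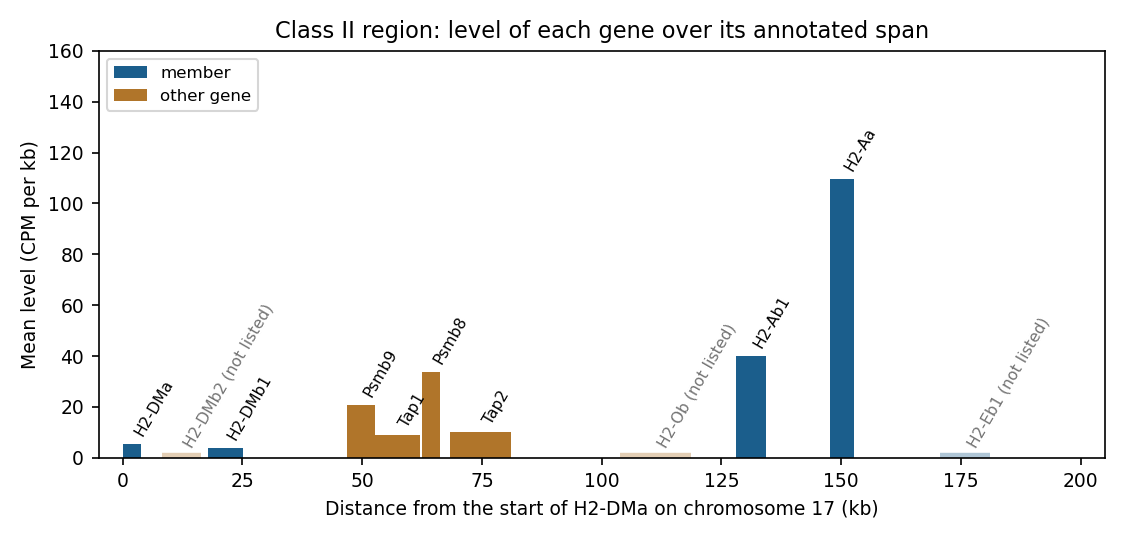
Mean level in CPM per kb of listed mRNA for the 11 named protein-coding genes of the class II region, drawn over each gene's annotated span in kb from the start of H2-DMa. Bars are means over the 4 libraries with no error, flat pale segments mark genes that are not listed, and the highest bars are H2-Aa (110) and H2-Ab1 (40.1).

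Ciita, the co-activator on which class II transcription depends, was the least abundant of the group per length. Its mean of 6.28 CPM was above that of H2-DMb1, but over an mRNA of 5359 bases it came to 1.17 CPM per kb, at percentile 14.6 of the listed genes. Cd74 was 109-fold and the mean of the H2-A chains 63.9-fold above it per length. Ciita has 19 exons on the plus strand of chromosome 16, from 10480237 to 10527657. Of 7 factors that bind the class II promoters, 2 were listed, both above Ciita and below the median of all listed genes. Rfx5 was at 2.39 CPM per kb and Rfxap at 3.01 CPM per kb, which are subunits of the RFX complex that binds the X box. Rfxank, Nfya, Nfyb, Nfyc and Creb1 were not listed.

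The site on which these factors and Ciita assemble is shown here for the 3 genes of the group in whose promoter windows it was found. Promoter windows of 250 bases before to 50 bases after the start were found for H2-Aa, H2-Eb1, H2-DMb1 and H2-DMa (RefSeq, GRCm38.p6), and for Cd74, H2-Ab1 and Ciita no entry was found. The capitals mark first the letters CTNGNAAC, from the X box, and then TGATTGG, from the Y box that NF-Y binds, where N is any base.
H2-DMb1, plus strand, chr17:34153090-34153140: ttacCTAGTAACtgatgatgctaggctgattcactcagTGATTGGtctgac
H2-Aa, minus strand, chr17:34287861-34287911: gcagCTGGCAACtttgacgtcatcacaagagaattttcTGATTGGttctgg
H2-Eb1, plus strand, chr17:34305769-34305818: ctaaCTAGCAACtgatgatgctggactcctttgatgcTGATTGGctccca

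The 2 elements are 26 bases apart in H2-DMb1 and H2-Aa and 25 bases apart in H2-Eb1. The Y box ends 56, 43 and 54 bases before the start in H2-DMb1, H2-Aa and H2-Eb1. Among all 32851 promoter windows, TGATTGG was present on either strand in 7.82% and CTNGNAAC in 13.2%. Both, in this order and 15 to 45 bases apart, were present in 27 windows, or 0.0822%, among them those of the 3 genes above and of H2-Ob. The letters were written down with the class II promoters in view, so this is a description of them. The 2 windows of H2-DMa held neither string.

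Interferon-γ signalling leads to Ciita by way of its receptor, the Jak kinases and the transcription factor Irf1. Of the 5 genes of this list, 4 were listed and all 4 lay above the median of all listed genes. Irf1 was at 19.9 CPM per kb, and the receptor chains Ifngr1 and Ifngr2 were at 10.3 and 8.98 CPM per kb. Jak2 was at 7.14 CPM per kb, and Jak1 was not listed.

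Enzymes that degrade the invariant chain and prepare peptides were read in bulk liver RNA, and which cells made them was not tested. Of 8 endosomal enzymes, 7 were listed, all above the median of the listed genes, with a median of 136 CPM per kb and a range from 21.1 to 257. Ctsd, a general lysosomal aspartic protease, was the highest, and Ctsl, Ctsz and Ctsb followed at 142, 140.1 and 136 CPM per kb. Ctss, the cathepsin that trims the invariant chain in professional antigen-presenting cells, was at 55.4 CPM per kb, so that Cd74 was 2.30-fold above it. The asparaginyl endopeptidase Lgmn was at 47.6 CPM per kb. Ifi30, the interferon-induced thiol reductase of endosomes, was the lowest at 21.1 CPM per kb. Ctsh was not listed.

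Mif, a ligand of Cd74, was at 114 CPM per kb, against 127 CPM per kb for Cd74. Without division by length Cd74 was 2.84-fold above Mif. Cd44, the co-receptor that signals with Cd74, was at 1.59 CPM per kb. Cd74 was 80.2-fold above Cd44 per length and 20.1-fold above it in CPM. Sppl2a, the protease that removes the last membrane stub of the invariant chain, was not listed. March1 and March8, ubiquitin ligases that act on class II and other membrane proteins, were not listed under these symbols, but the table holds entries in date form that may be theirs and were not counted. The costimulatory ligands that accompany class II on antigen-presenting cells were low where listed, in 2 of 6 cases. Cd86 was at 1.87 CPM per kb and Cd274, the inhibitory ligand PD-L1, at 0.884 CPM per kb. H2-Aa was 58.7-fold above Cd86 per length and 24.7-fold above it in CPM. Cd80, Cd40, Icosl and Pdcd1lg2 were not listed.

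The class I pathway, which nearly all cells use, had 8 of 9 genes listed, and all 8 lay above the median of the listed genes. The class I heavy chains H2-K1 and H2-D1 were at 279 and 176 CPM per kb and their partner B2m at 2146 CPM per kb. H2-K1 was 2.54-fold above H2-Aa, and B2m 16.9-fold above Cd74. Tapbp, which holds class I in the loading complex, was at 19.3 CPM per kb. Nlrc5, the class I counterpart of Ciita, was not listed. Reads shared between class I genes, a large family of close copies, were discarded as well, and their windows were not checked.

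**Figure D3:**
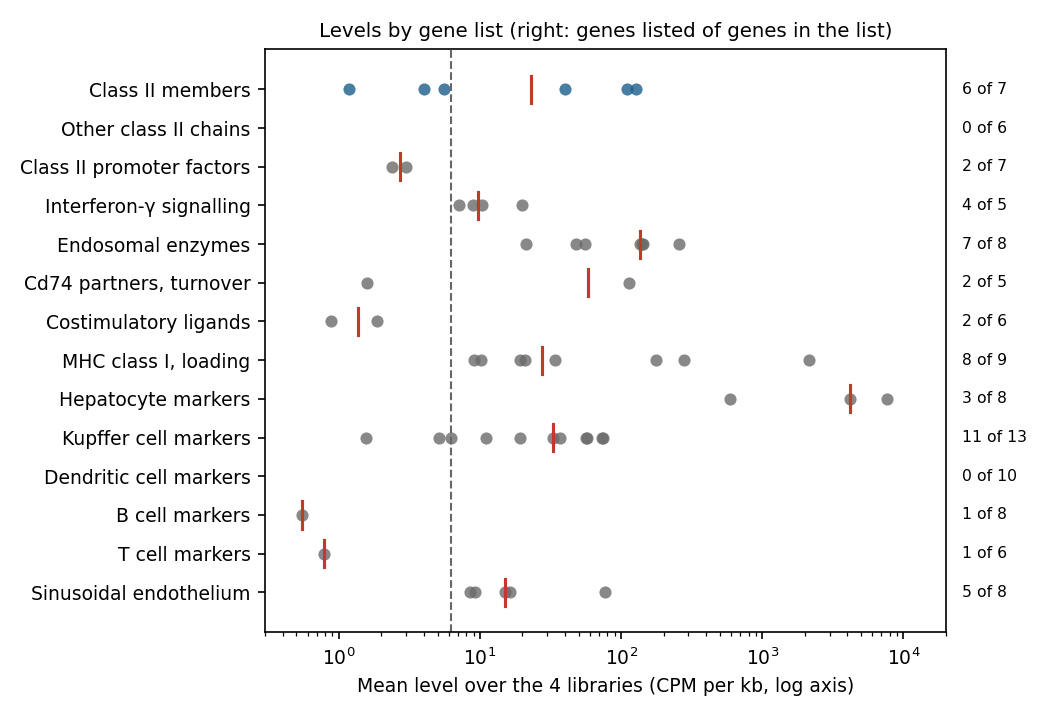
Mean level in CPM per kb (log axis) of every listed gene in the MHC class II group and in 13 gene lists. Each point is a gene, red bars are list medians, the dashed line is the median of the 7000 listed genes, and the numbers at the right give genes listed of genes in the list. The class II genes run from 1.17 to 127 CPM per kb, so overlap of a marker list with this wide range does not point to a source cell. Only 1 B cell and 1 T cell marker were listed, both below 1.

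Markers of cells that carry class II were read beside these levels. Of 13 Kupffer cell markers 11 were listed, with a median of 33.1 CPM per kb and a range from 1.56 to 74.8. Of the 11, 9 lay above the median of all listed genes, while Marco at 5.15 and Cd163 at 1.56 CPM per kb lay below it. Clec4f, a lectin restricted to Kupffer cells, was the highest at 74.8 CPM per kb, followed by Cd5l at 73.7. The complement genes C1qa and C1qc were at 57.0 and 56.7 CPM per kb. H2-Aa was 1.47-fold above Clec4f per length, but the order turned without division by length, where the ratio was 0.653. Of 8 sinusoidal endothelial markers 5 were listed, from Pecam1 at 8.52 to Clec4g at 76.9 CPM per kb, with a median of 15.1. None of 10 dendritic cell markers was listed, among them Itgax, Flt3, Zbtb46 and Xcr1. Of 8 B cell markers only Cd22 was listed, at 0.550 CPM per kb, and the defining genes Cd79a and Ms4a1 were not. Cd22 was 199-fold below H2-Aa per length and 52.0-fold below it in CPM. Of 6 T cell markers only Cd4, which is also made by some myeloid cells, was listed, at 0.782 CPM per kb. Because listing depends on the p-values of the authors' comparison, a marker that is not listed need not be low. The Kupffer cell markers Cd68 and Lyz2 were not listed either. The share of all genes that was listed was not analysed here. In bulk liver RNA a smaller number of cells and less RNA per cell cannot be told apart, and the share of each cell type in the class II mRNA was not tested.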

How the data were processed

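Ribosomal RNA was removed from total liver RNA and stranded libraries were sequenced with 50-cycle single-end reads. The authors aligned reads with Bowtie to mm9 RefSeq mRNAs, keeping the longest isoform per gene and unique alignments with up to 2 mismatches, and ran edgeR for genes above 1 CPM in at least 3 samples. The sources used here give no versions of these tools. The mean log2 CPM over the 4 libraries and the mRNA length in bases were used as deposited by the authors. The deposited table's log2 fold changes, p-values and FDR hold the results of the authors' own comparison of the diets and were not used, so there was no test between diets.

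The CPM was calculated as 2 to the power of the mean log2 CPM and divided by the listed length in kb. A percentile is the percent of the 7000 listed genes at or below a level. Positions came from GENCODE vM1 on NCBIM37, the assembly of mm9, for the transcript nearest in length to the listed one, or the longest for H2-Eb1. Each 50-base window of an mRNA was searched on both strands of the longest GENCODE mRNA of all other genes; the search was tested on made-up sequences. The alternatives were the reference length, no division by length, a background of at least 5 CPM and, added after the data were seen, the unique windows as length. The rule for named genes took the 7 members and the genes of the lists, which are given by counts and examples. Some genes of the lists are not reported here. The members and lists were chosen with earlier results of these data known. Genes with a pattern like the members could not be sought with 1 mean per gene. Python 3.11.15, numpy 2.4.6, pandas 2.3.3 and matplotlib 3.10.9 were used.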

Additional observations from a re-analysis of the deposited data

How the results depend on the processing

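The precision of the levels is unknown, because counts per library were not analysed here. No paired analysis was possible because no value belongs to a single mouse. Leaving out a mouse could not be run for the same reason. A level or ratio was counted as moved beyond 1.5-fold, and a percentile beyond 10 points. Dividing by the longest reference transcript moved none of the 13 levels and ratios. With unique windows as length, 11 of 13 did not move, H2-DMb1 rose to 7.72 CPM per kb, and the ratio of H2-DMa to H2-DMb1 turned to 0.795. With no division by length, the percentile was 74.3 for H2-Ab1, 32.4 for H2-DMa and 20.9 for H2-DMb1, and the ratio to Ciita was 28.7 for Cd74 and 13.1 for the mean H2-A chain. On that scale the list median over that of all listed genes was 10.5 for endosomal enzymes, 1.94 for Cd74 partners, 2.53 for MHC class I, 389 for hepatocyte, 2.82 for Kupffer cell and 4.40 for sinusoidal endothelial genes, against 22.0, 9.37, 4.41, 675, 5.35 and 2.44 per kb. Among genes of at least 5 CPM, the percentile was 33.8 for H2-DMa, 23.4 for H2-DMb1 and 1.94 for Ciita. These shifts follow from the lengths and from the genes left in the background.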

Other observations

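Some entries of the table have a spreadsheet date in place of a symbol, among them 1-Mar and 8-Mar. March1 encodes the ubiquitin ligase that sends class II molecules of dendritic cells and B cells to degradation, and March8 is its closest relative. The entry 1-Mar has a length of 4391 bases, where the longest annotated mRNA of March1 has 4177 bases and that of Mosc1, a liver gene also named Marc1, has 2152 bases. It had 5.89 CPM, or 1.34 CPM per kb, at percentile 16.9 of the listed genes. The entry 8-Mar has a length of 4521 bases, where the longest annotated mRNA of March8 has 4611 bases. It had 174 CPM, or 38.4 CPM per kb, at percentile 86.2. The identity of neither entry was settled, so they were not counted for March1 or March8. These entries were looked up after the table had been seen.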
